A study of Mus musculus with 8 samples.

Results

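Macrophages that lack CD14 were compared with wild-type macrophages after 24 h of lipopolysaccharide (LPS), the outer-membrane glycolipid of gram-negative bacteria. Each genotype was measured on 1 array at this time, from 8 arrays in the study. A gene entered the comparison when the brighter of these arrays exceeded the median of all normalized intensities, 88.2, and 6846 of the 12394 genes named on the array did so. At this edge Lin9, at 88.2, was inside and Efcab7, at 88.1, was outside. Because a group is 1 array, each difference given here was seen once, has no replicate behind it and carries neither an error nor a p-value.

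The CD14-deficient cells came from Cd14-/- mice on C57BL/6, and the wild-type cells from C57BL/6 mice, both aged 6 to 8 weeks. Bone marrow of both was grown for 7 days in IMDM medium with M-CSF, which turns marrow precursors into macrophages, and 10% heat-inactivated serum. LPS was given at 1 µg/ml for 6 or 24 h, and unstimulated cells were taken 24 h after plating. The wild-type labels call the LPS smooth, whereas the CD14-deficient labels say only LPS. A further pair of wild-type arrays received LPS with EGTA, which binds calcium outside the cell, at 2 mM by the label of the 24 h sample. The labels do not say how many mice gave a sample or whether marrow was pooled. At 24 h the RNA integrity numbers were 9.7 for CD14-deficient and 9.5 for wild-type cells, and labelling gave 53.2 µg of cRNA for CD14-deficient and 52 µg for wild-type cells.

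CD14 is a lipid-anchored surface protein that binds single LPS molecules and passes them to the receptor TLR4 with its partner MD-2. From the cell surface TLR4 signals through MyD88 to NF-kB and inflammatory cytokines. CD14 also drives uptake of the receptor complex into endosomes, where TLR4 signals through TRIF to IRF3 and interferon beta, and secreted interferon then acts back on the cells to induce antiviral genes. In some cell types LPS can also, through CD14, open calcium entry and activate the transcription factor NFAT. Neither calcium entry nor NFAT activity was measured on these arrays.

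At 24 h of LPS, CD14-deficient cells had 357 genes at least 2-fold above wild type, 5.21% of those compared, and 425 at least 2-fold below it, 6.21%. The median log2 difference (CD14-deficient minus wild type throughout) was 0.02, its central 95% ran from -1.51 to 1.3, and 71.8% of genes lay within 1.5-fold. The large differences were mostly decreases: 30 genes were at least 4-fold higher and 81 at least 4-fold lower, and at 8-fold there were 2 higher and 23 lower. Of the 2-fold genes, 31 higher and 50 lower ones had the dimmer array at the floor of 38.4, below which no level was read, so their folds are lower bounds and are given as "at least". These counts follow quantile normalization of the arrays. On the deposited intensities, whose array medians were 95.7 for CD14-deficient and 67.2 for wild-type cells, 1089 genes were higher and 215 lower, so that 83.5% of the 2-fold genes were higher in place of 45.7%, and the median of all genes was shifted to 0.43. With arrays scaled to equal medians 329 were higher and 551 lower (37.4% higher), and the median gene stood at -0.10. The genes named by rule that passed 2-fold all kept their direction where those scalings let them be compared, 185 of 185 and 188 of 188. They were picked for their size, so a change of sign under shifts this small was unlikely from the start. Of the genes named by rule, 62 moved into or out of the 2-fold call on the deposited intensities and 30 with equal medians. At the edges of the call, Cep68 was just inside on the higher side and Nectin4 on the lower side, and Cpd and Tcf19 were just outside, with log2 differences that all round to 1.0 or -1.0.

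**Figure D1:**
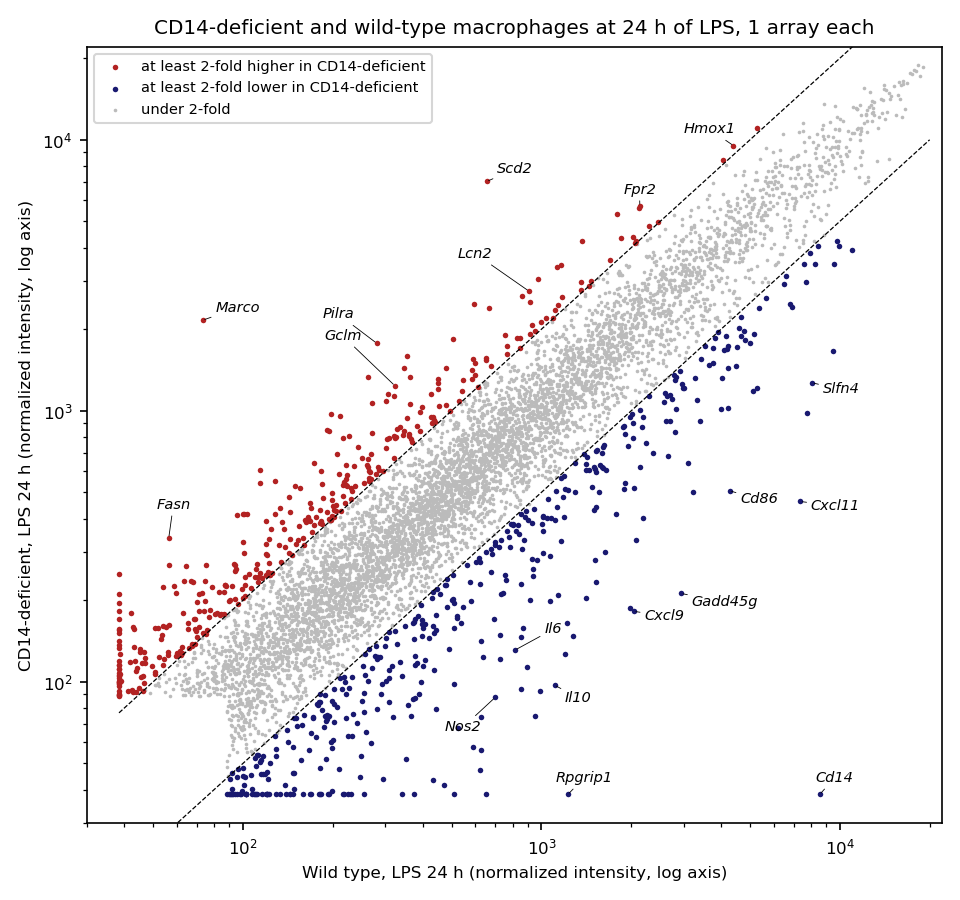
Normalized intensity of the 6846 genes compared at 24 h of LPS, with the CD14-deficient array on the vertical and the wild-type array on the horizontal log axis. Dashed lines mark 2-fold, red points are the 357 genes at least 2-fold higher and blue points the 425 at least 2-fold below wild type; Cd14 lies at the floor of 38.4 in CD14-deficient against 8564 in wild-type cells.

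The arrays carried the markers of macrophages. All 9 macrophage markers, among them Csf1r, Adgre1, Cd68 and Mertk, were above the overall median in both genotypes, with summed intensities of 75716 in CD14-deficient and 73010 in wild-type cells. The 7 markers of T, NK and B cells and 8 of mast cells, eosinophils and basophils were all at the floor on both arrays. In longer lists for these cells, 16 of 18 and 9 of 11 genes were at the floor on both. The exceptions were Cd28 (276 in CD14-deficient against 435 in wild-type cells) and Cd4 (64.2 in CD14-deficient against 72.3 in wild-type cells). Gata2 and Siglecf were at the floor in CD14-deficient cells and 72.4 and 42.7 in wild type. Of 11 dendritic cell markers, 5 (Flt3, Zbtb46, Xcr1, Cd209a and Ccr7) were at the floor on both, and the list summed to 1304 in CD14-deficient and 2063 in wild-type cells. The other 6 were compared, and 3 of them were lower, Cd83 (212 in CD14-deficient against 742 in wild-type cells), Ccl22 (176 in CD14-deficient against 442 in wild-type cells) and Ccl17 (124 in CD14-deficient against 281 in wild-type cells), which macrophages can also express; Fscn1 (0.89), Itgax (0.49) and Batf3 (-0.08) were within 2-fold. On the deposited intensities 1 of the 6 was lower and 2 were higher. Whether dendritic cells contribute to the 24 h differences was not tested. Of 8 neutrophil markers, 6 were at the floor on both, and the list summed to 1583 in CD14-deficient and 1975 in wild-type cells. Of 5 erythroid and platelet markers only Pf4 was above the median, and of 6 fibroblast markers only Dcn, at the floor in CD14-deficient and 192 in wild-type cells. In a bulk sample, fewer cells of a type and less RNA per cell cannot be told apart.

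Cd14 was at the floor on all 3 CD14-deficient arrays, and its wild-type intensities were 3849, 12515 and 8564 at 0, 6 and 24 h, so that it was at least 223-fold lower at 24 h. The other parts of the LPS receptor differed less. Tlr4 was 807 in CD14-deficient and 1213 in wild-type cells (1.5-fold lower), and Ly96, which encodes MD-2, was 1084 in CD14-deficient against 1509 in wild-type cells. The exceptions were Ly86 and Cd180, which encode MD-1 and its partner RP105, relatives of MD-2 and TLR4. Ly86 was 1880 in CD14-deficient cells against 4650 in wild type (2.47-fold lower), and Cd180 was 691 in CD14-deficient against 1386 in wild-type cells (2.01-fold lower). Of 13 receptor genes compared, 3 were lower, namely the deleted gene Cd14 itself, Ly86 and Cd180. None was higher, and the median was -0.25, which was 0.02 on the deposited intensities. Among 12 Toll-like receptor adaptors and kinases only Peli1, a ubiquitin ligase of the pathway, passed 2-fold, at 1209 in CD14-deficient and 3010 in wild-type cells.

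The 24 h difference was laid out by how genes had answered LPS at 6 h, using the 0 h and 6 h arrays, which are not part of the 24 h comparison. At 6 h LPS raised 714 genes (10.3%) and lowered 623 (8.99%) at least 2-fold in CD14-deficient cells, and raised 727 (10.5%) and lowered 659 (9.5%) in wild-type cells. Of 469 genes raised in both genotypes and compared at 24 h, 167 (35.6%) were then lower in CD14-deficient cells and 7 higher. Of 301 lowered in both, 72 (23.9%) were higher and 8 lower. Among 4930 genes under 2-fold in both, 152 (3.08%) were higher and 100 (2.03%) lower. The pattern was also there among genes whose levels at 6 h were within 2-fold between the genotypes. Of 385 such induced genes 110 (28.6%) were lower at 24 h and 3 higher, with a median of -0.69 at 24 h and -0.24 at 6 h. Between 6 and 24 h these induced genes changed by a median log2 of -0.70 in CD14-deficient and -0.25 in wild-type cells. Of 231 such repressed genes 51 (22.1%) were higher at 24 h and 5 lower, with a median of 0.47 at 24 h and 0.23 at 6 h. Their median change between 6 and 24 h was 0.71 in CD14-deficient and 0.34 in wild-type cells. By these medians, induced genes lost more of their level after 6 h, and repressed genes regained more, in the CD14-deficient sample. The 6 h arrays that chose the genes also enter these changes, which are therefore not separate from that choice.

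**Figure D2:**
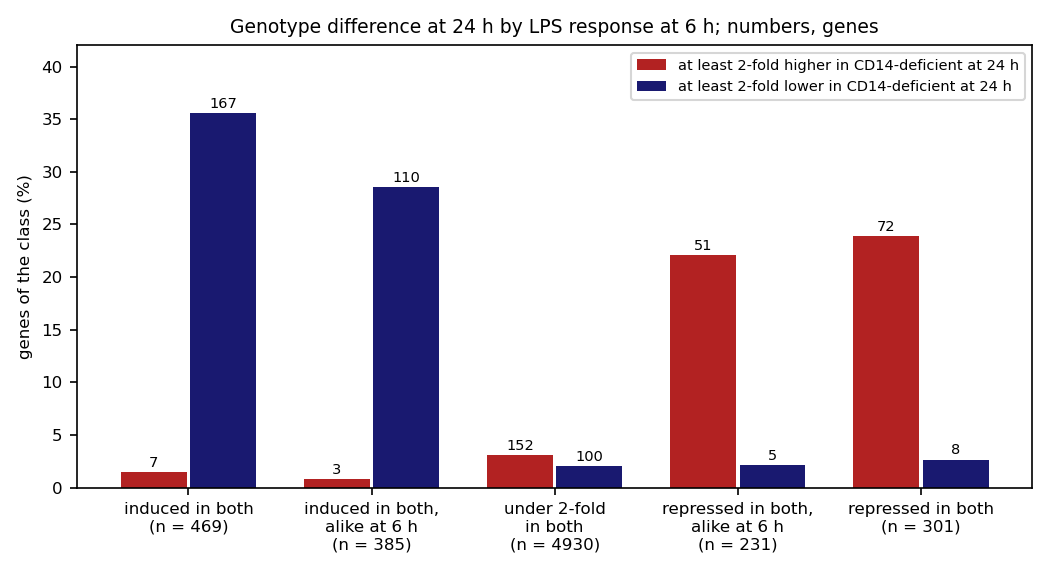
Share of genes at least 2-fold higher (red, left bar) and lower (blue, right bar) in CD14-deficient cells at 24 h of LPS, in classes set by the response to 6 h of LPS; numbers above the bars are genes. Among induced genes the blue bars are tallest (167 of 469, and 110 of the 385 alike at 6 h), and among repressed genes the red bars (51 of the 231 alike at 6 h, and 72 of 301).

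Genes of the NF-kB system carried this course. Among 15 subunits and inhibitors compared, 5 were lower, none was higher and the median was -0.51, whereas at 6 h none passed 2-fold and the median was 0.21; on the deposited intensities 3 were lower at 24 h. Tnfaip3, encoding the ubiquitin editor A20 that shuts NF-kB off, was 175, 2942 and 542 at 0, 6 and 24 h in CD14-deficient cells, against 306, 2602 and 1902 in wild type. It was alike at 6 h and 3.51-fold lower at 24 h. Nfkbie, an inhibitor of NF-kB, was 502 in CD14-deficient and 1557 in wild-type cells at 24 h, and had been 1548 in CD14-deficient against 1226 in wild-type cells at 6 h. Traf1, a signalling adaptor, was 619 in CD14-deficient against 1599 in wild-type cells at 24 h, and Rel, a subunit, 93.9 in CD14-deficient against 215 in wild-type cells. The subunit gene Rela (-0.30) and the inhibitor gene Nfkbia (-0.15) stayed within 2-fold.

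Feedback inhibitors outside NF-kB showed 6 lower and 1 higher of 18, with a median of -0.52; on the deposited intensities 5 were lower and 3 higher. Zfp36, whose product tristetraprolin destabilizes cytokine mRNA, was 1782 in CD14-deficient and 4987 in wild-type cells (2.80-fold lower). Dusp1, a phosphatase for p38 and JNK, was 1961 in CD14-deficient against 4791 in wild-type cells (2.44-fold lower), and Socs1, an inhibitor of JAK kinases, 261 in CD14-deficient against 940 in wild-type cells (3.60-fold lower). Socs2 was at the floor in CD14-deficient and 218 in wild-type cells, at least 5.68-fold lower. The gene that went the other way was Dusp6, an ERK phosphatase, at 1085 in CD14-deficient and 301 in wild-type cells. LPS had lowered it at 6 h in both, to 226 in CD14-deficient against 148 in wild-type cells, and at 24 h it had regained more of its unstimulated level in CD14-deficient cells.

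Inflammatory cytokines were split. Of 15 compared, 8 were lower and 1 higher, with a median of -1.17, against 0.08 at 6 h. Il6, the acute-phase cytokine, was at the floor without LPS in both genotypes, then 2510 at 6 h and 131 at 24 h in CD14-deficient cells, against 1538 and 816 in wild type. At 24 h it was 6.23-fold lower although at 6 h it had been higher. Il33, an alarmin, stayed at or next to the floor on every CD14-deficient array, and was 661 and 216 at 6 and 24 h in wild type. Tnfsf10, the death ligand TRAIL, was 158 in CD14-deficient and 867 in wild-type cells, and Inhba, an activin subunit, 117 in CD14-deficient against 383 in wild-type cells. Edn1, endothelin, was 1157 in CD14-deficient and 1155 in wild-type cells at 6 h, but 46.2 in CD14-deficient against 149 in wild-type cells at 24 h.

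Other classical cytokines did not follow Il6. Il12b, the shared chain of interleukins 12 and 23, was 627 and 235 at 6 and 24 h in CD14-deficient cells, against 307 and 63.4 in wild type, and so was 3.71-fold higher at 24 h. Il1b was 8461 in CD14-deficient and 5388 in wild-type cells at 24 h (1.57-fold higher), and had been 13064 in CD14-deficient against 4472 in wild-type cells at 6 h. Tnf was 2360 in CD14-deficient and 3535 in wild-type cells at 24 h (1.5-fold lower), after 8213 in CD14-deficient against 3802 in wild-type cells at 6 h. Il10, the main anti-inflammatory cytokine of macrophages, was lower at both times. It was 684 and 97.1 at 6 and 24 h in CD14-deficient cells, against 2223 and 1107 in wild type, 11.4-fold lower at 24 h.

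Enzymes that make inflammatory mediators were also mixed. Nos2, the inducible nitric oxide synthase, was 440 and 87.5 at 6 and 24 h in CD14-deficient cells, against 832 and 699 in wild type, 7.99-fold lower at 24 h. Ptgs2, the inducible cyclooxygenase that starts prostaglandin synthesis, was 1907 and 199 in CD14-deficient cells, against 1612 and 1068 in wild type, 5.37-fold lower at 24 h. Ptges, the prostaglandin E synthase that acts after it and a reported NFAT target, was 1829 in CD14-deficient and 2711 in wild-type cells at 24 h (1.48-fold lower). Rcan1, a standard calcineurin and NFAT target, was 286 in CD14-deficient against 450 in wild-type cells (1.57-fold lower). Of 11 calcineurin, NFAT and target genes compared, 1 was lower and none higher, where 6.21% of all genes compared were lower. It was Egr2, at the floor in CD14-deficient and 109 in wild-type cells, which passed the brightness filter on the wild-type array alone. At 6 h 3 of 12 had been higher, Egr1 (1.41), Egr2 (1.47) and Ptges (1.29), and none lower, where 2.53% of all genes were higher.

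**Figure D3:**
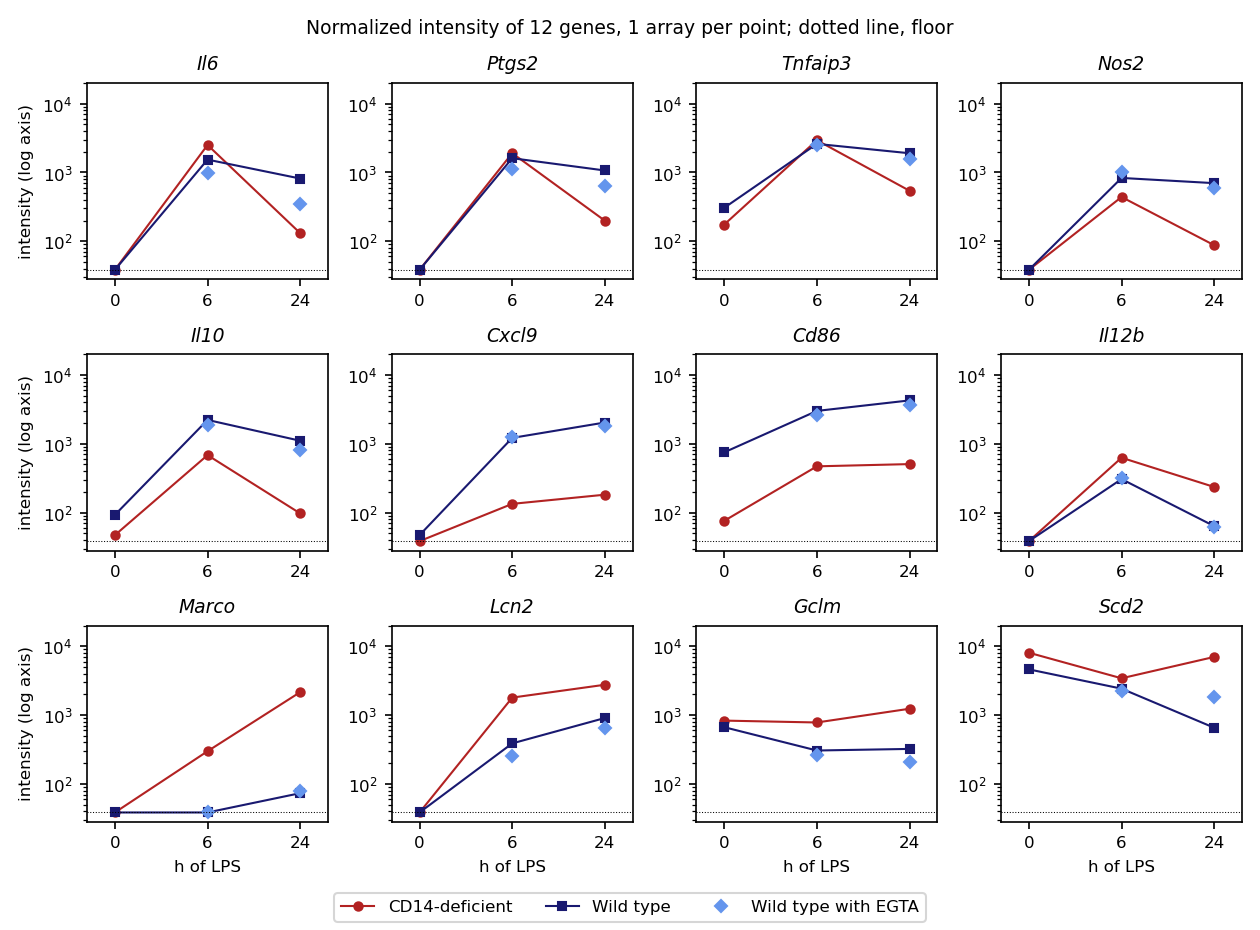
Normalized intensity (log axis) of 12 genes at 0, 6 and 24 h of LPS in CD14-deficient cells (red circles) and wild-type cells (dark blue squares), with wild-type cells given LPS and EGTA (light blue diamonds); each point is 1 array and the dotted line is the floor of 38.4. Ptgs2 and Tnfaip3 reach similar levels at 6 h and are lower in CD14-deficient cells at 24 h, Il6 is higher in them at 6 h and lower at 24 h, Il10, Cxcl9 and Cd86 are lower in CD14-deficient cells at 6 and 24 h, and Marco, Lcn2, Gclm and Scd2 are higher at 24 h.

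Chemokines that draw T cells through the receptor CXCR3 were among the largest decreases. Cxcl11 was 462 in CD14-deficient and 7371 in wild-type cells (15.9-fold lower), and Cxcl9 was 182 in CD14-deficient against 2039 in wild-type cells (11.2-fold lower). Cxcl10, the third ligand of that receptor, was 7036 in CD14-deficient against 12396 in wild-type cells, which was 1.76-fold lower and did not pass 2-fold. The receptor gene Cxcr3 was itself lower, at 132 in CD14-deficient and 490 in wild-type cells. The neutrophil attractants Cxcl1 (116 in CD14-deficient against 159 in wild-type cells) and Cxcl2 (1641 in CD14-deficient against 1904 in wild-type cells) were within 2-fold at 24 h. At 6 h Cxcl1 had been 2115 in CD14-deficient against 348 in wild-type cells, and Cxcl2 8583 in CD14-deficient against 1507 in wild-type cells. In all 2 of 7 CXC chemokines compared were lower and none higher, with a median of -0.46 that was 0.02 on the deposited intensities.

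Of 12 CC chemokines compared, 6 were lower, none was higher and the median was -0.74. Ccl8, a monocyte attractant, was 1663 in CD14-deficient and 9515 in wild-type cells (5.72-fold lower). Ccl4, Ccl7, Ccl12, Ccl17 and Ccl22 were 2.08-fold to 2.63-fold lower. Ccl5 (0.02), Ccl3 (-0.21) and Ccl2 (-0.25) differed by less than 1.5-fold. On the deposited intensities 3 of the 12 were lower. Without LPS 4 of 10 had been lower: Ccl5, at the floor in CD14-deficient against 7558 in wild-type cells, Ccl8, at 68.1 in CD14-deficient against 2254 in wild-type cells, Ccl12 (-2.58) and Ccl17, at the floor in CD14-deficient against 119 in wild-type cells. Ccl7 (-0.94) had been just short of 2-fold.

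The gene for interferon beta rose above the floor in CD14-deficient cells only at 6 h. Ifnb1 was at the floor, 66.8 and the floor at 0, 6 and 24 h in CD14-deficient cells, against the floor, 214 and 224 in wild type, so that it was at least 5.85-fold lower at 24 h. Its receptors and JAK kinases showed 1 further decrease among the 11 genes of their list, Tyk2, at 717 in CD14-deficient and 1538 in wild-type cells; on the deposited intensities 1 of the 11 was lower and 2 were higher. Among 15 IRF and STAT factors 3 were lower and 1 higher, and with equal medians 6 were lower and none higher. Irf1 was 4231 and 1825 at 6 and 24 h in CD14-deficient cells, against 5098 and 4801 in wild type, 2.63-fold lower at 24 h. Stat3 was 1404 in CD14-deficient against 2924 in wild-type cells, Batf2 619 in CD14-deficient against 2141 in wild-type cells, and Irf8, a factor of the macrophage and dendritic lineages that LPS lowers, was higher at 1468 in CD14-deficient against 677 in wild-type cells. Irf7 (7259 in CD14-deficient against 12439 in wild-type cells) and Stat2 (2187 in CD14-deficient against 3864 in wild-type cells) were lower by less than 2-fold.

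Genes that interferon induces lay almost all below the wild-type level. Of the 36 antiviral genes, 10 passed 2-fold in the lower direction and none in the higher, 35 had a difference below 0, and the median was -0.58. How many passed 2-fold depended on the scaling: 18 did with equal medians (median -0.97) and 7 on the deposited intensities. Mx2, a dynamin-like antiviral protein, was 281 in CD14-deficient and 1515 in wild-type cells (5.38-fold lower). Isg20, an exonuclease, was 3471 in CD14-deficient against 9578 in wild-type cells, and Oasl1 2978 in CD14-deficient against 7731 in wild-type cells. Tlr3, the receptor for double-stranded RNA, was 1017 in CD14-deficient against 2813 in wild-type cells, and Aim2, a DNA sensor, 115 in CD14-deficient against 376 in wild-type cells. Without LPS the same list had been much further apart, with 33 of 35 genes lower and a median of -2.41, and at 6 h 2 of 36 were lower and the median was -0.37. The rise over the unstimulated array was accordingly larger in CD14-deficient cells at 24 h, by a median log2 of 2.86 over genes compared, against 1.3 in wild type.

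The guanylate-binding proteins and immunity-related GTPases, which attack the vacuoles of intracellular pathogens, behaved alike. Of 9 compared, 4 were lower, all 9 had a difference below 0, and the median was -1.0; with equal medians 7 were lower and the median was -1.41. Gbp8 was 501 in CD14-deficient and 3232 in wild-type cells (6.45-fold lower), Iigp1 3934 in CD14-deficient against 11000 in wild-type cells (2.80-fold lower) and Irgm2 2393 in CD14-deficient against 5371 in wild-type cells (2.24-fold lower). Slfn4, a Schlafen gene, was 1268 in CD14-deficient against 8079 in wild-type cells (6.37-fold lower), and 2 of 5 Schlafen genes passed 2-fold.

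The promoters of Socs1 and Cxcl10 are shown because both hold the interferon-stimulated response element, the sequence that STAT and IRF factors bind at interferon-induced genes. The bases are the 250 before the RefSeq transcription start on GRCm38.p6, on the gene's own strand, which is minus for both: chr16:10785537-10785786 for Socs1 and chr5:92348890-92349139 for Cxcl10. Capitals mark matches to the letters GAAA, any 2 bases and GAAA again.

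Socs1: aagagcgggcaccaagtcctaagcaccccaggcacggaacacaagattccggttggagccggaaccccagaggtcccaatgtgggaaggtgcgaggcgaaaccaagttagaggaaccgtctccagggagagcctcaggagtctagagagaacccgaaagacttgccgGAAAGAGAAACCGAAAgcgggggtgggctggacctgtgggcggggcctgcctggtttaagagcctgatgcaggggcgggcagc

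Cxcl10: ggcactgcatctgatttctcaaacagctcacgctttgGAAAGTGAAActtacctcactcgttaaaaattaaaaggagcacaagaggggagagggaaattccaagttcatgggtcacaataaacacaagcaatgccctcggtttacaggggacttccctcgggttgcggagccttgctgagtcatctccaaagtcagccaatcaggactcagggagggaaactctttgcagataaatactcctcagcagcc

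Socs1 had 2 matches that overlap each other, from 83 to 74 and from 77 to 68 bases before the start, and Cxcl10 had 1, from 213 to 204 bases before it. On both strands of the 300-base RefSeq windows (250 bases before to 50 after the start), this motif occurred in 20 of 329 promoters of lower genes (6.08%), 7 of 293 of higher genes (2.39%) and 3.40% of all 5649 compared genes with a promoter. In the antiviral list it occurred in 11 of 25 (44%). The related interferon-gamma activated site, TTCNNNGAA, occurred in 10.9% of lower, 8.53% of higher and 7.10% of all compared promoters.

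The Il6 promoter is shown beside them for its NF-kB match, since Il6 was higher in CD14-deficient cells at 6 h and lower at 24 h. The bases lie at chr5:30012864-30013113 on the plus strand of GRCm38.p6, and capitals mark the match to the letters GGGA, any base and TTTCC, from 44 to 35 bases before the start.

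Il6: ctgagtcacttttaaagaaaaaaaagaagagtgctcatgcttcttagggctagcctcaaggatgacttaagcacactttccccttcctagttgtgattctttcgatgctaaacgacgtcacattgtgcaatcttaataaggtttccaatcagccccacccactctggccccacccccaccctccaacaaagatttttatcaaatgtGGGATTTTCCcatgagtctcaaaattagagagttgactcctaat

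This strict NF-kB spelling was rare, in 3 of 329 promoters of lower genes (0.912%), 1 of 293 of higher genes (0.341%) and 0.407% of all compared. A match is only a run of letters, and a promoter without one may hold other forms of the site.

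Surface ligands for T cells made up another group of decreases. Of 15 costimulatory and checkpoint ligands compared, 7 were lower, none was higher and the median was -0.95. Cd86, a ligand of CD28, was 75.7, 470 and 506 at 0, 6 and 24 h in CD14-deficient cells, against 751, 3006 and 4273 in wild type, and was 8.44-fold lower at 24 h. Tnfsf4, the OX40 ligand, was 43.2 in CD14-deficient against 432 in wild-type cells at 24 h, 10.0-fold lower over a value close to the floor. Vcam1, an adhesion molecule, was 344 in CD14-deficient and 275 in wild-type cells at 6 h, but 165 in CD14-deficient against 1218 in wild-type cells at 24 h, 7.37-fold lower. Cd83, Cd200 and Slamf7 were 2.21-fold to 3.50-fold lower. Cd40, which had reached 8159 in CD14-deficient and 9655 in wild-type cells at 6 h, was 2688 in CD14-deficient against 5186 in wild-type cells at 24 h and just short of 2-fold.

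Antigen presentation differed less. Of 9 MHC class II genes 2 were lower, Cd74 (2602 in CD14-deficient and 5667 in wild-type cells) and H2-Eb1 (677 in CD14-deficient against 1425 in wild-type cells), and the median was -0.63; on the deposited intensities neither passed 2-fold. None of 15 MHC class I processing genes passed 2-fold (median -0.20), though 2 were lower with equal medians. Of 10 caspase and inflammasome genes 3 were lower, and 5 with equal medians. Casp4, the mouse caspase 11 that binds LPS in the cytosol, was 1915 in CD14-deficient and 5146 in wild-type cells (2.69-fold lower), after 3843 in CD14-deficient against 4063 in wild-type cells at 6 h. Death receptors and related genes showed 4 lower of 15 (2 on the deposited intensities), led by Tnfrsf9 (65.2 in CD14-deficient against 258 in wild-type cells) and Fas (299 in CD14-deficient against 1016 in wild-type cells). In a list of serpins and clotting or plasminogen genes 5 of 9 were lower, the serpins Serpinb1a, Serpinb2, Serpinb6b and Serpinb9 and the urokinase receptor gene Plaur. Serpinb9, an inhibitor of granzyme B, was 916 in CD14-deficient and 2693 in wild-type cells.

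On the other side, the largest increase was Marco, a scavenger receptor for bacteria and particles. It was at the floor, 298 and 2158 at 0, 6 and 24 h in CD14-deficient cells, against the floor, the floor and 73.2 in wild type, and so was 29.5-fold higher at 24 h. The dim wild-type value makes the size of this fold imprecise. Of 11 scavenger receptors compared 2 were higher, and the other, Colec12, was 155 in CD14-deficient and 75.5 in wild-type cells. Other surface receptors went both ways. Of 7 C-type lectin receptors 2 were higher and none lower (1 and 1 with equal medians), of 8 chemoattractant receptors 2 were higher and 2 lower (median -0.35), of 16 integrin and adhesion genes 1 was higher and 3 lower, and of 11 Fc receptor and complement genes none was higher and 1 lower. Pilra, an inhibitory receptor, was 1775 in CD14-deficient against 280 in wild-type cells (6.33-fold higher), Siglece, an inhibitory sialic acid receptor, 269 in CD14-deficient against 56.5 in wild-type cells, and Clec5a, a DAP12-coupled lectin, 1057 in CD14-deficient against 362 in wild-type cells. Fpr2, a formyl peptide receptor, was 5689 in CD14-deficient against 2136 in wild-type cells, and C5ar1, the receptor for complement C5a, 1198 in CD14-deficient against 450 in wild-type cells, each 2.66-fold higher. Nrp1, neuropilin, was 1591 in CD14-deficient against 355 in wild-type cells, and Itgal, the integrin alpha chain of LFA-1, 414 in CD14-deficient against 100.0 in wild-type cells. The lower ones included Cxcr3, the chemokine receptor Ccr1, at 1075 in CD14-deficient and 2583 in wild-type cells, Itgb7, an integrin beta chain, at the floor in CD14-deficient against 255 in wild-type cells, and the Fc receptor Fcgr4, at 3481 in CD14-deficient against 8226 in wild-type cells.

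Some genes best known from neutrophils and the acute phase were higher as well. Lcn2, which sequesters bacterial siderophores, was 1797 and 2764 at 6 and 24 h in CD14-deficient cells, against 388 and 908 in wild type (3.04-fold higher at 24 h). Hp, haptoglobin, was 249 in CD14-deficient against the floor in wild-type cells (at least 6.49-fold higher), and Camp, the cathelicidin, 107 in CD14-deficient against 38.6 in wild-type cells. In all 3 of 7 compared were higher and 1 lower, and of the 14 genes analysed 7 were at the floor on both arrays. Hp and Camp passed the brightness filter on the CD14-deficient array alone, and Slpi, the lower gene, on the wild-type array alone. Cp (0.88), S100a8 (0.23) and Saa3 (-0.16) were within 2-fold. Other neutrophil markers did not move with Lcn2, Hp and Camp: 6 of 8 were at the floor on both arrays and Csf3r was 1246 in CD14-deficient and 1706 in wild-type cells. Whether other cells contribute to Hp or Camp was not tested.

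Transcription factors of the myeloid lineage that LPS lowers were among the higher genes. Cebpa, a master factor of granulocyte and macrophage fate, was 1771, 197 and 843 at 0, 6 and 24 h in CD14-deficient cells, against 1235, the floor and 194 in wild type, 4.34-fold higher at 24 h. Mef2c was 904, 173 and 411 in CD14-deficient cells, against 474, 223 and 95.4 in wild type, 4.31-fold higher. As a whole the macrophage lineage list changed little, with 1 of 19 higher, Cebpa, and a median of 0.13 that was -0.23 with arrays scaled to equal medians.

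Transcripts of lipid synthesis mostly lay above the wild-type level in CD14-deficient cells. In the cholesterol synthesis list, 9 of 19 genes compared were higher, none was lower, 18 had a difference above 0 and the median was 1.00. On the deposited intensities 14 passed 2-fold, and with equal medians 7. Sqle, the squalene epoxidase, was 2717, 2171 and 1842 at 0, 6 and 24 h in CD14-deficient cells, against 1794, 1614 and 504 in wild type, 3.65-fold higher at 24 h. Dhcr7, which makes cholesterol from its last precursor, was 417 in CD14-deficient against 103 in wild-type cells (4.03-fold higher), Lss, lanosterol synthase, 690 in CD14-deficient against 207 in wild-type cells (3.34-fold higher), and Fdps, farnesyl diphosphate synthase, 3439 in CD14-deficient against 1158 in wild-type cells (2.97-fold higher). Stard4, which carries cholesterol between membranes, was 852 in CD14-deficient against 191 in wild-type cells (4.47-fold higher) and had also been higher at 0 and 6 h. LPS lowered this list at 24 h in both genotypes, by a median log2 of -0.32 in CD14-deficient and -0.57 in wild-type cells.

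Fatty acid genes showed 5 higher and none lower of 15, with a median of 0.83; on the deposited intensities 10 were higher and the median was 1.29. Scd2, a desaturase that makes monounsaturated fatty acids, was 8079, 3431 and 7017 at 0, 6 and 24 h in CD14-deficient cells, against 4625, 2424 and 655 in wild type. At 24 h it was 10.7-fold higher, the largest increase after Marco, and its other probe sets gave log2 differences of 3.49 and 3.58. Fasn, fatty acid synthase, was 339 in CD14-deficient against 56.3 in wild-type cells (6.02-fold higher), Fads2 327 in CD14-deficient against 100.2 in wild-type cells (3.26-fold higher) and Fads1 825 in CD14-deficient against 270.4 in wild-type cells (3.05-fold higher), the last pair being desaturases of polyunsaturated fatty acids. In the opposite direction, Ch25h, which makes the antiviral oxysterol 25-hydroxycholesterol and is induced by interferon, was 204 in CD14-deficient and 1410 in wild-type cells (6.92-fold lower). The cholesterol exporter Abca1 was 5294 in CD14-deficient against 2781 in wild-type cells, 1.90-fold higher.

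Glutathione and other antioxidant genes, many of them targets of the transcription factor NRF2, formed a further group. Of 20 compared, 8 were higher, none was lower and the median was 0.45. With equal medians 6 were higher and the median was 0.20. Both subunits of the enzyme that starts glutathione synthesis were higher: Gclc was 223 in CD14-deficient and 53.7 in wild-type cells (4.15-fold) and Gclm 1238 in CD14-deficient against 322 in wild-type cells (3.84-fold). Slc7a11, which imports cystine for it, was 194 in CD14-deficient against the floor in wild-type cells (at least 5.07-fold higher), and Gsr, glutathione reductase, 1136 in CD14-deficient against 320.2 in wild-type cells (3.55-fold higher). Cat, catalase, was 2385 in CD14-deficient against 665 in wild-type cells (3.58-fold higher). Hmox1, which breaks down heme, was 9515 in CD14-deficient against 4400 in wild-type cells (2.16-fold higher), Blvrb, biliverdin reductase B, 4169 in CD14-deficient against 2063 in wild-type cells, and the iron exporter Slc40a1 367 in CD14-deficient against 137 in wild-type cells (2.68-fold higher). Hamp, which encodes the hormone hepcidin that removes that exporter, was at the floor in CD14-deficient against 182 in wild-type cells. Nfe2l2, the gene of NRF2 itself, differed by 0.22.

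The Gclm promoter is shown because it holds a match to the NRF2 element. The bases lie at chr3:122245307-122245556 on the plus strand of GRCm38.p6, and capitals mark a match to TGACNNNGC on the opposite strand, from 134 to 126 bases before the start.

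Gclm: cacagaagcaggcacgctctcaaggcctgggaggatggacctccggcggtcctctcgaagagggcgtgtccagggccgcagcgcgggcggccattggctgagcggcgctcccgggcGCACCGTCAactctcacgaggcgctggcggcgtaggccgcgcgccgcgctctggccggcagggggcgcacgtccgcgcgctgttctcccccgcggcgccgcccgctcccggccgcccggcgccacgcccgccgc

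That spelling is common. It occurred in 14.3% of promoters of higher genes, 16.4% of lower genes and 15.2% of all compared, and in 4 of 17 of the NRF2 and glutathione list. The sterol element TCACNCCAC occurred in 1 of 15 promoters of the cholesterol list and in 0.938% of all compared. None of the matches shown for these 4 promoters overlapped a match to another of the 5 motifs searched.

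Transcripts of glycolysis, the pentose phosphate pathway and the citric acid cycle mostly lay above the wild-type level in CD14-deficient cells. Fatty acid oxidation genes differed less, with 2 of 17 higher, none lower and a median of 0.08. In the glycolysis and hypoxia list 12 of 26 were higher, 1 was lower and the median was 0.70. With equal medians 9 were higher, 1 was lower and the median was 0.26. Pfkl, a phosphofructokinase, was 3051 in CD14-deficient and 971 in wild-type cells (3.14-fold higher). Pdk1, which restrains the use of pyruvate in mitochondria, was 795 in CD14-deficient against 216 in wild-type cells (3.69-fold higher). Ak4, a hypoxia-induced mitochondrial adenylate kinase, was 415 in CD14-deficient against 100.5 in wild-type cells (4.13-fold higher). Egln1 and Egln3, the prolyl hydroxylases that mark HIF1A for destruction, were higher too, Egln1 at 517 in CD14-deficient against 156 in wild-type cells and Egln3 at 119 in CD14-deficient against the floor in wild-type cells. The exception was Pfkfb3, whose product activates glycolysis and which LPS induces, at 603 in CD14-deficient and 1647 in wild-type cells (2.73-fold lower). The glycolytic enzyme genes Aldoa (0.72), Pgam1 (0.68), Ldha (0.62), Pgk1 (0.55), Pkm (0.42), Gapdh (0.37) and Hk1 (-0.32) were within 2-fold. So was the hypoxia gene Vegfa (-0.41). Without LPS 8 of 26 in this list were already higher, and at 6 h 1 of 25.

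Of 6 pentose phosphate genes, which supply NADPH, 2 were higher (4 on the deposited intensities and 1 with equal medians). Pgd was 5586 in CD14-deficient and 2117 in wild-type cells and Tkt 8400 in CD14-deficient against 4055 in wild-type cells. In the citric acid cycle 4 of 19 were higher and none lower (median 0.35, and 0.19 with equal medians). Idh1, an NADPH-producing enzyme of the cytosol, was 2515 in CD14-deficient against 912 in wild-type cells (2.76-fold higher), and Idh2, Idh3a and Dlat were 2.44-fold to 2.46-fold higher. Srm, spermidine synthase, was 551 in CD14-deficient against 128 in wild-type cells (4.30-fold higher). Respiratory chain subunits gave a contrast, with none of 25 past 2-fold and a median of 0.25 that was -0.12 with equal medians. None of 24 constitutive proteasome subunits, 16 ribosomal protein genes and 19 genes of the unfolded protein response passed 2-fold, with log2 differences between -0.29 and 0.90.

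Replication and mitosis genes bright enough to compare mostly lay below the wild-type level. Of 24 DNA replication genes analysed 18 were compared, of which 8 were lower, none was higher and the median was -0.96. Of 26 mitosis genes only 12 were compared, with 4 lower and a median of -0.82, and the rest were too dim on both arrays. Some of the lower genes passed the brightness filter on the wild-type array alone, so their calls are not separate from it. Examples are Mcm5 (74.7 in CD14-deficient against 189 in wild-type cells) and Cenpa (59.7 in CD14-deficient against 141 in wild-type cells). On the deposited intensities the replication median was -0.54 and none passed 2-fold, and 2 mitosis genes were lower. Mcm7, a subunit of the replicative helicase, was 2031, 369 and 158 at 0, 6 and 24 h in CD14-deficient cells, against 1053, 392 and 402 in wild type. It was the brighter in CD14-deficient cells without LPS and 2.55-fold lower at 24 h. Lig1, a DNA ligase, was 90.7 in CD14-deficient and 253 in wild-type cells at 24 h, and Rrm2, a ribonucleotide reductase subunit, at the floor in CD14-deficient against 111 in wild-type cells. Mki67, the proliferation marker, was 1089, 954 and 185 in CD14-deficient cells, against 440.3, 607 and 331 in wild type. At 0 h the replication list had 6 of 23 genes higher, none lower and a median of 0.87. Tpx2, a spindle factor, was the extreme, at 188 in CD14-deficient against 1982 in wild-type cells at 24 h (10.6-fold lower).

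Among 12 D-type cyclins and G1 regulators compared, 4 were lower, none was higher, 7 had a difference above 0 and the median was 0.04; on the deposited intensities 2 were lower and 2 higher. Ccnd2, a D-type cyclin, was 114 in CD14-deficient and 895 in wild-type cells (7.88-fold lower), Ccnd1 1335 in CD14-deficient against 2828 in wild-type cells, and Rbl1, a relative of the retinoblastoma protein, 431 in CD14-deficient against 1496 in wild-type cells. The other decrease was Cdkn2d, a CDK inhibitor, at 334 in CD14-deficient and 871 in wild-type cells. Rb1 itself (0.77), the CDK inhibitor genes Cdkn1a (0.75) and Cdkn1b (0.59), and Cdk4 (0.47) lay above 0 and within 2-fold. Outside this list, Mxd1, a repressor that competes with MYC, was at the floor in CD14-deficient against 653 in wild-type cells, at least 17.0-fold lower.

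**Figure D4:**
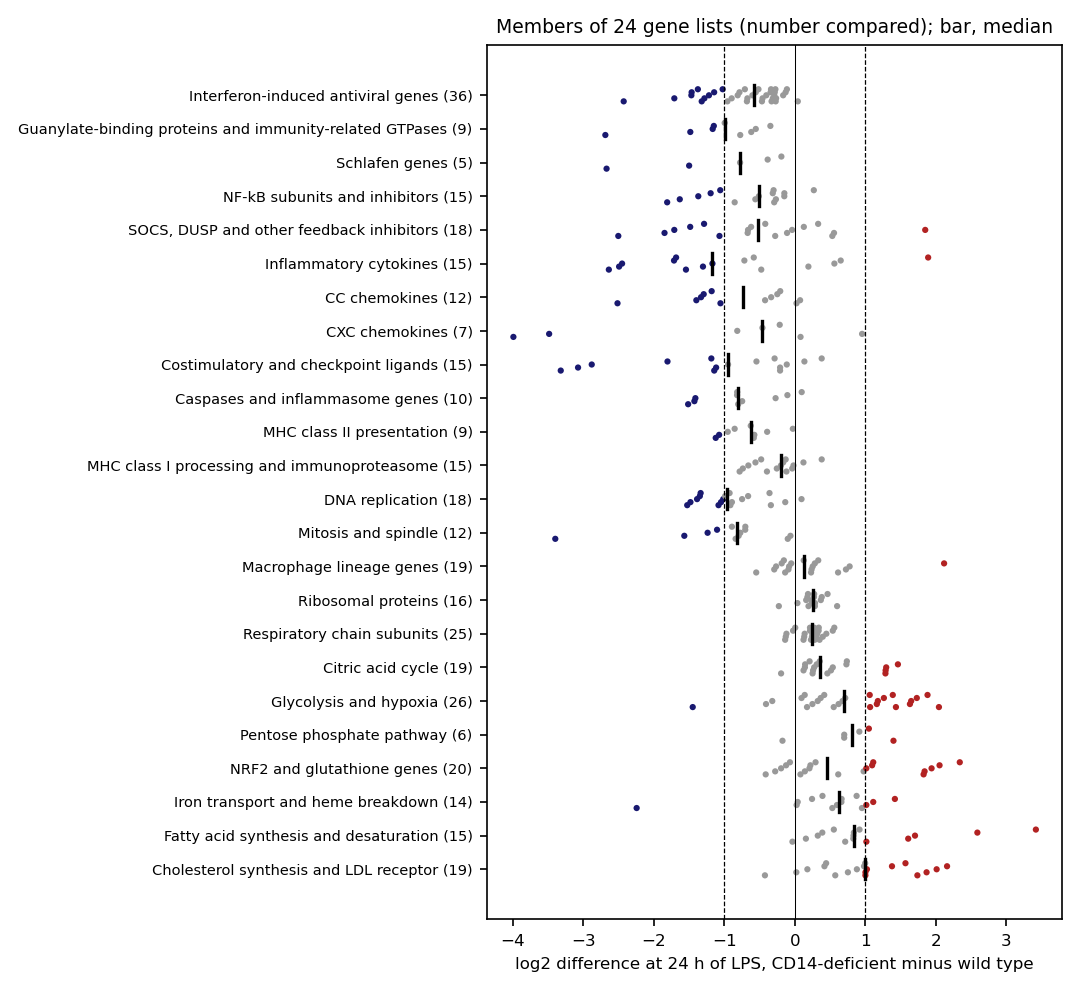
Log2 difference at 24 h of LPS, CD14-deficient minus wild type, for each compared gene of 24 lists, with the number compared in brackets; each dot is a gene, the black bar is the list's median, and dashed lines mark 2-fold. Interferon, cytokine, costimulatory and replication lists lie left of 0, ribosomal, respiratory chain and lineage lists lie near 0, and the lipid, glutathione and glycolysis lists lie to the right.

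Among the 15 largest decreases measured above the floor on both arrays were genes of varied function. Gadd45g, a stress-induced growth arrest gene, was 212 in CD14-deficient and 2937 in wild-type cells (13.9-fold lower), Cnn3, an actin-binding calponin, 47.2 in CD14-deficient against 624 in wild-type cells, and Dgka, a diacylglycerol kinase, 41.5 in CD14-deficient against 472 in wild-type cells. Lhx2, a homeobox factor, was 56.0 in CD14-deficient against 629 in wild-type cells, Thbs1, thrombospondin, 92.1 in CD14-deficient against 992 in wild-type cells, and Kdr, a receptor for VEGF, 93.9 in CD14-deficient against 854 in wild-type cells. Further decreases lay outside those 15. Pgf, a VEGF relative, was at the floor in CD14-deficient against 339.6 in wild-type cells. Klrk1, the receptor NKG2D, was at the floor in CD14-deficient against 511 in wild-type cells, and Klf4, a zinc finger factor, was 122 in CD14-deficient against 729 in wild-type cells.

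A small set was at least 2-fold lower at every time, with or without LPS. Rpgrip1 was 45.0, the floor and the floor at 0, 6 and 24 h in CD14-deficient cells, against 1607, 1313 and 1226 in wild type, at least 32.0-fold lower at 24 h. Wdfy1, encoding an endosomal protein, was 51.4, 73.9 and 74.6 in CD14-deficient cells, against 633, 613 and 950 in wild type, and Erdr1 was 196, 193 and 127 in CD14-deficient cells, against 2038, 2210 and 1201 in wild type. In all 35 of 6327 genes compared at the 3 times were at least 2-fold lower at each, among them Cd14, Cd86, Ccl8, Socs1 and Gbp8, and 7 were higher at each, Fasn, Gdf3, Stard4, Egln3, Arap3, Adi1 and Paip1. The size of the difference varied between times for some of the 35: for Ccl8 it was -5.05, -2.48 and -2.52 at 0, 6 and 24 h, and Isg20 was at the floor in CD14-deficient against 944 in wild-type cells at 0 h but -1.24 and -1.46 at 6 and 24 h. Gdf3, a TGF-beta family ligand, was 1125, 784 and 606 in CD14-deficient cells, against 122, 94.7 and 114 in wild type.

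Most genes past 2-fold at 24 h were not past it in the same direction at the other times, although most differed with the same sign. The 6 h and 0 h genotype comparisons use other arrays, and they gave 171 higher (2.53%) and 208 lower (3.08%) of 6761 at 6 h, and 95 higher (1.4%) and 217 lower (3.2%) of 6782 at 0 h. Among 6559 genes compared at 6 and 24 h, 49 were higher at both, 15.8% of those higher at 24 h and 30.8% of those higher at 6 h. Lower at both were 125, which is 32.2% of those lower at 24 h and 68.7% of those lower at 6 h. The sign at 6 h was the same for 260 of 310 genes higher at 24 h and 337 of 388 lower ones. Their median differences at 6 h were 0.41 and -0.69, against 0.02 for all genes. With 0 h, 23 were higher at both (7.08% of the 24 h genes and 39.0% of the 0 h genes) and 70 lower at both, from 304 lower at 24 h and 212 lower at 0 h. The sign at 0 h was the same for 238 of 325 genes higher at 24 h and 217 of 304 lower ones. The central 95% of all genes was wider at 24 h, -1.51 to 1.3, than at 6 h, -1.10 to 1.01, or at 0 h, -1.23 to 0.85.

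**Figure D5:**
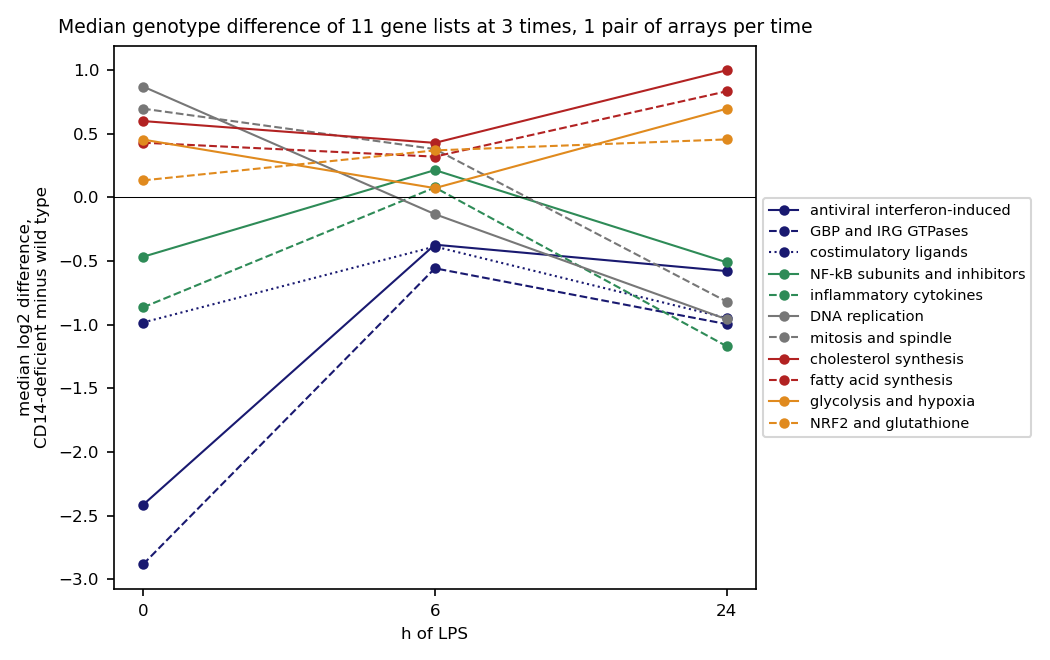
Median log2 difference of 11 gene lists, CD14-deficient minus wild type, at 0, 6 and 24 h of LPS, each time from 1 pair of arrays and over the list genes compared at that time. The antiviral list lies at -2.41, -0.37 and -0.58, the DNA replication list at 0.87, -0.13 and -0.96, and the cholesterol list at 0.60, 0.43 and 1.00.

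The wild-type cells given EGTA with LPS share no array with the CD14-deficient ones, but would be set against the same wild-type array, so only values are given side by side for 24 h. For several of the lower genes the EGTA value lay between the others. Il6 was 131 in CD14-deficient cells, 350 in wild type with EGTA and 816 in wild type. Ptgs2 was 199 in CD14-deficient cells, 631 with EGTA and 1068 in wild type, and Serpinb1a at the floor in CD14-deficient cells, 68.9 with EGTA and 229 in wild type. For these interferon-induced and T cell genes the EGTA value was near wild type: Cxcl9 was 182 in CD14-deficient cells, 1788 with EGTA and 2039 in wild type, Cd86 506 in CD14-deficient cells, 3697 with EGTA and 4273 in wild type, and Isg20 3471 in CD14-deficient cells, 9931 with EGTA and 9578 in wild type. Among the higher genes, Marco was 2158 in CD14-deficient cells, 78.9 with EGTA and 73.2 in wild type, and Gclc 223 in CD14-deficient cells, 47.5 with EGTA and 53.7 in wild type. The sterol gene Sqle and the desaturase gene Scd2 had intermediate values with EGTA, Sqle at 1842 in CD14-deficient cells, 1092 with EGTA and 504 in wild type, and Scd2 at 7017 in CD14-deficient cells, 1863 with EGTA and 655 in wild type.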

How the data were processed

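Total RNA of bone marrow-derived macrophages was measured on 8 arrays, 1 for each of 8 groups taken from the labels. The deposited values are linear intensities of 22690 probe sets, made by the authors with MAS5 per the submitters' processing notes. Any scaling target, detection calls and versions are not given in the sources used here.

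Symbols came from the platform annotation, updated by gene identifier through RefSeq GRCm38.p6: 20393 probe sets had 1 gene (20364 matched), 691 had several and were not used, and 1606 were not listed. The intensities were quantile normalized over the 8 arrays, raised to a floor at their 40th percentile (38.4) and logged to base 2. Quantile normalization removes any shift shared by all genes. A gene was read from its probe set with the highest mean, and compared where its brighter array exceeded the 50th percentile (88.2). Calls were differences of at least 2-fold. The number of arrays limits the precision, and no p-value was computed. Levels were compared between arrays, not between genes.

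The text names the 15 largest increases and 15 largest decreases above the floor, the 8 largest bounds in each direction, the 6 largest differences of each list and 14 fixed genes, drawn on as space allowed. Other genes, such as Rela, Nfkbia, Ccl2, Ccl3, Ccl5, Nfe2l2 and Vegfa, were named after their values were seen. The 60 lists held 1018 genes, of which 890 were on the array annotation and 128 are not analysed here; they and the comparison were chosen with earlier results of these data known. None of the 59 named 2-fold genes with a further measured probe set had a probe set of the opposite direction. Motifs were searched in RefSeq promoters (5649 of 6846 compared genes matched). Python 3.11.15, pandas 2.3.3, numpy 2.4.6 and matplotlib 3.10.9 were used, and the procedure was tested on simulated data. Alternatives changed the normalization, floor, probe set rule and filter.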

Additional observations from a re-analysis of the deposited data

Results flagged for a closer look

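A pair of named genes had genotype differences past 2-fold in opposite directions at 6 h and 24 h, and the change between the times was not tested, since each time has 1 array per genotype. Serpinb2, an inhibitor of plasminogen activators, was 275 in CD14-deficient cells and at the floor in wild type at 6 h (2.84), but 170 in CD14-deficient and 693 in wild-type cells at 24 h (-2.03). Egr2, a zinc finger factor, was 382 in CD14-deficient and 138 in wild-type cells at 6 h (1.47), but at the floor in CD14-deficient and 109 in wild-type cells at 24 h (-1.51). Of 6559 genes compared at both times 3 showed such a turn, and the remaining gene was Rgs18, a regulator of G protein signalling, singled out after its values were seen. It was 363 in CD14-deficient and 750.2 in wild-type cells at 6 h (-1.05), and 1067 in CD14-deficient and 271 in wild-type cells at 24 h (1.98).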

How the results depend on the processing

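On the deposited intensities 1089 genes were higher and 215 lower, since the CD14-deficient array was the brighter, and the median gene moved to 0.43. With the brighter array required to exceed the 75th percentile, fewer genes were compared (3824), and 154 were higher and 227 lower. The counts were within 1.5 times those reported, at 268 to 374 higher and 345 to 551 lower, with equal medians, a floor at the 20th or 50th percentile, the mean of a gene's probe sets, or no filter on dim genes. Under all 7 alternatives no named gene past the call changed direction. Of named 2-fold genes 185 of 185 kept their sign on the deposited intensities and 188 of 188 with equal medians. Under the stricter filter 124 of 124 did. No list median past the call changed direction, but this covers little. Only the medians of inflammatory cytokines and of serpins and plasminogen activation were past it. On the deposited intensities both lay within 2-fold, at -0.67 for the cytokines and -0.53 for the serpins. List medians within 2-fold were less stable, and many changed sign with the scaling. Among them were those of scavenger receptors, integrins, CXC chemokines, respiratory chain subunits and ribosomal proteins. That of Toll-like receptor adaptors and kinases went from -0.31 to 0.12 on the deposited intensities. That of macrophage lineage genes went from 0.13 to -0.23 with equal medians. No paired analysis was possible because each group has 1 array. Without replicates or detection calls, folds over values near 38.4 are the least certain.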
